A study of Mus musculus with 6 samples.

Results

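Sorted pituitary cells of adult Tshbcre and adult Ghcre mice were compared directly, 1 library against 1 library, 2 of the 6 libraries of the series. Adult Tshbcre mice carry a Cre recombinase driven by Tshb, the gene of the thyrotropin beta subunit, and adult Ghcre mice carry one driven by Gh, the growth hormone gene. Both genotypes also carry a YFP reporter at the ROSA locus that Cre switches on, and the sorted cells were the fluorescent fraction of collagenase-dispersed glands. The adult Tshbcre library pooled 42 glands and the adult Ghcre library 12 glands, all from animals 7 weeks old, and 250 ng of RNA entered a protocol that removes ribosomal RNA, so that lncRNAs (long transcripts that encode no protein) are kept with mRNA. Of the libraries outside the pair, adult Lhbcre held sorted cells of 7 pooled Lhbcre-YFP glands at 7 weeks. The adult whole gland was 1 gland, with no age in weeks given. Those of postnatal day 7 were sorted cells of 5 pooled Tshbcre-YFP glands, and 8 nontransgenic whole glands. The labels do not state the sex of the animals. Levels of Xist, a lncRNA of female cells, differed between the libraries and are given below. A Cre-activated reporter marks any cell in which the driver was active at some time, so each fraction is a lineage and need not hold only cells that now make the hormone.

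Thyrotropes, which make thyrotropin, and somatotropes, which make growth hormone, are both lineages of the anterior pituitary that need the transcription factor POU1F1, as do the prolactin-making lactotropes. Thyrotropin is a dimer of the Tshb product with the alpha subunit encoded by Cga, which gonadotropes also make for luteinizing and follicle-stimulating hormone. POU1F1 acts with GATA2 at the Tshb gene, whereas growth hormone output is driven by growth hormone-releasing hormone through cyclic AMP.

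Values are FPKM, a level per length of transcript, summed over the transcripts of a gene and divided by 1 scaling factor per library. Differences are adult Tshbcre minus adult Ghcre on log2(scaled FPKM + 1), and each fold is taken there too, which makes differences of low genes look smaller than they are. With 1 library on each side there is no replicate and no test, and the bounds given are those deposited with the FPKM, which reflect read counting and read assignment inside 1 library and not animals. The adult Ghcre library was the deeper, at 2.73 times the depth of the adult whole gland, against 1.16 times for the adult Tshbcre library. Its table ended within chromosome 5 and listed 32923 gene names, all of them also listed for adult Tshbcre, and the genes missing from it count as unmeasured.

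The 2 thyrotropin subunits lay furthest apart of the named genes above 0 in both libraries. Pou1f1 is needed by both lineages, and Pappa2 was the member of the somatotrope list that was lowest in adult Tshbcre relative to adult Ghcre. The promoters of these 4 genes, which carry the comparison, are shown. Each runs 5′ to 3′ for 250 bases before and 50 after the start, from RefSeq on GRCm38.p6, with chr3:102782665-102782964 on the minus strand for Tshb, chr4:34893529-34893828 on the plus strand for Cga, chr16:65520262-65520561 on the plus strand for Pou1f1 and chr1:158958126-158958425 on the minus strand for Pappa2.
Tshb: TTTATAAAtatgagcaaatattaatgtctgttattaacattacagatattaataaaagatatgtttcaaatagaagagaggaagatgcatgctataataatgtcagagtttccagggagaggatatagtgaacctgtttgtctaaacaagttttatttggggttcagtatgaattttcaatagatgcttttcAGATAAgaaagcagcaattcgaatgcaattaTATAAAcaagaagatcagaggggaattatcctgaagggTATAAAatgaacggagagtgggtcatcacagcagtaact
Cga: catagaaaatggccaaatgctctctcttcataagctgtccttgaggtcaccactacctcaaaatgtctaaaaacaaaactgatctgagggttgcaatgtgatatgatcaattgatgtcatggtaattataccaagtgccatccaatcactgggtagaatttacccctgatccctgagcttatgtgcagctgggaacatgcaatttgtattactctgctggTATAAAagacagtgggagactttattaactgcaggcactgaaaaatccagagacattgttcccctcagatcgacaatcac
Pou1f1: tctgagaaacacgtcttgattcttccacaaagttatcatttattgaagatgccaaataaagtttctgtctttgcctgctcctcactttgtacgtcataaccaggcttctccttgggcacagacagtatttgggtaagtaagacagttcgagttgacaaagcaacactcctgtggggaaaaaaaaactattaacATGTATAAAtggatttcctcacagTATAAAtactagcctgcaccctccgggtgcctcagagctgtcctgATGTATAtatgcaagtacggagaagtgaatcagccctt
Pappa2: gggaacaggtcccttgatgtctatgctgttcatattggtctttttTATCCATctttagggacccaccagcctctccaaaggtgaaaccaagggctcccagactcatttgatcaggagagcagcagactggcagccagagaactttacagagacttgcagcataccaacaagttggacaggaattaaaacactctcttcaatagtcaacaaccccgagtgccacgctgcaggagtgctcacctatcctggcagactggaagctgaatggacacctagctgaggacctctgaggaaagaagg
Capitals mark matches, on either strand, to AGATAA (a core that GATA factors bind), ATGNATA (a core that POU1F1 binds) and TATAAA (the TATA box). Tshb held 1 AGATAA match, 58 bases before the start (position -58), and TATAAA matches at -250, -248, -27 and 12. Cga held a TATAAA match at -30 and neither of the other motifs. Pou1f1 held ATGNATA matches at -57 and 13, and TATAAA matches at -54, which overlaps the first of these, and at -33, and Pappa2 held 1 ATGNATA match, at -205. Of 32851 promoters of the same length, 11.2% held AGATAA, 8.84% held ATGNATA and 13.6% held TATAAA, so each motif alone is common, and a match describes letters and not binding.

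Thyrotrope genes were examined first, since Tshb checks the label of the adult Tshbcre library. Tshb, on chromosome 3 of mm39 between 102684621 and 102718175, reached 1075 scaled FPKM in adult Tshbcre, with bounds of 1028 and 1122, against 3.87 in adult Ghcre, with bounds of 3.03 and 4.85. The difference was 7.79 on the log2 scale, or 221-fold, and 129-fold with the unnamed transcripts assembled in its locus added. Cga (chromosome 4, 34893779 to 34907374) stood at 6546 in adult Tshbcre against 18.7 in adult Ghcre, 332-fold higher. Both thyrotropin subunits were therefore far apart, well beyond the deposited bounds. The same check of the adult Ghcre library could not be made, because Gh is not listed in the Ghcre table used here.

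Of the other thyrotrope members, Trhr, Dio2 and Isl1 were also 4-fold higher in adult Tshbcre, while the nuclear receptors of the list were not. Trhr (chromosome 15, 44059314 to 44099308), the receptor for thyrotropin-releasing hormone, stood at 10.9 scaled FPKM in adult Tshbcre, with bounds of 9.86 and 11.9, against 0.69 in adult Ghcre, with bounds of 0.52 and 0.86, or 7.03-fold higher. Dio2 (chromosome 12, 90691326 to 90705812), the deiodinase that turns thyroxine into the active hormone, stood at 40.4 in adult Tshbcre against 3.51 in adult Ghcre, or 9.18-fold higher. Isl1, a LIM-homeodomain transcription factor of thyrotropes and gonadotropes, stood at 10.5 against 0.22, 9.42-fold higher in adult Tshbcre. Thrb, the thyroid hormone receptor beta gene, stood at 11.7 in adult Tshbcre against 17.7 in adult Ghcre. Rxrg, its retinoid X receptor partner, stood at 11.3 in adult Tshbcre against 13.2 in adult Ghcre, with bounds that overlap and an order that turned round on FPKM as deposited.

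Pou1f1 (chromosome 16, 65317398 to 65331904) was present in both libraries and was the lower in adult Tshbcre. It stood at 23.1 scaled FPKM in adult Tshbcre, with bounds of 21.7 and 24.6, against 40.3 in adult Ghcre, with bounds of 38.4 and 42.3. The log2 difference of -0.78 stayed under the 4-fold line, and with assembled transcripts added the levels were 41.2 in adult Tshbcre and 58.8 in adult Ghcre. All of its annotated level came from the transcript NM_008849.6 in both libraries. Pou1f1 differed by 1.71-fold and Tshb, the driver gene of the adult Tshbcre sort, by 221-fold. Whether the level of Pou1f1 has a part in that of Tshb was not tested. Gata2, the partner of POU1F1 at Tshb, is on a chromosome after the last one of the Ghcre table, and stood at 44.9 in adult Tshbcre.

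Over the thyrotrope list, 5 of the 8 members compared were at least 4-fold higher in adult Tshbcre and 0 were 4-fold lower, with a median log2 difference of 3.01. Over all 11207 genes at 1 scaled FPKM or more in either library, 5.24% were at least 4-fold higher and 5.13% at least 4-fold lower, and the median was -0.033. Nmur2 was listed at 0 in both libraries, and Tshr stood at 0.93 in adult Tshbcre and 0.24 in adult Ghcre, under the level needed to be compared. Since the list holds the driver gene, its position above all genes checks the sort and is not a separate result. In these bulk libraries, fewer cells of a type and less RNA per cell cannot be told apart.

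**Figure D1:**
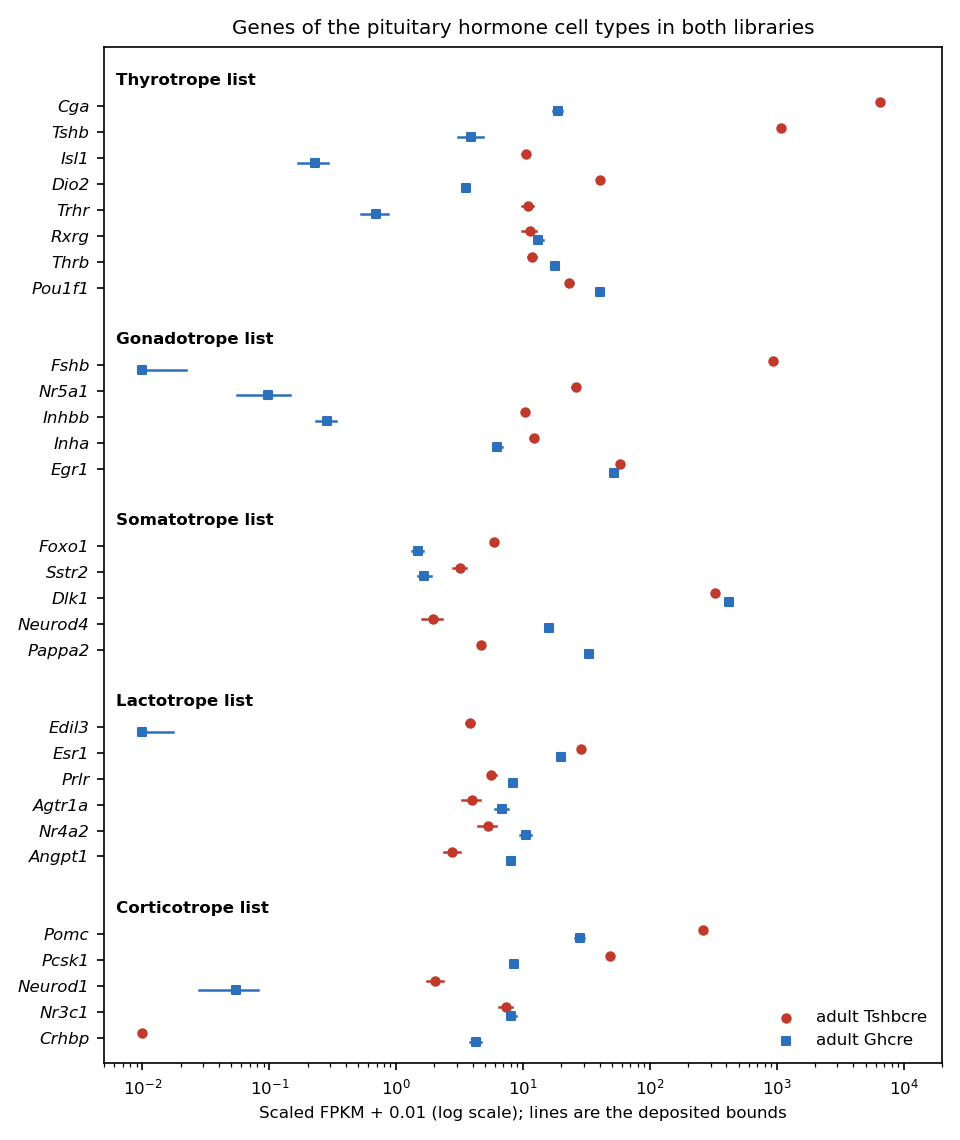
Scaled FPKM (log axis, 0.01 added) of members compared of 5 hormone cell type lists, those named in the text, in adult Tshbcre (circles, upper of each pair) and adult Ghcre (squares), with the deposited bounds as lines and each gene drawn once. Fshb, Crhbp, Edil3, Cga, Tshb and Nr5a1 lie furthest apart, where Fshb and Edil3 are listed at 0 in adult Ghcre and Crhbp at 0 in adult Tshbcre. Crhbp, Pappa2 and Neurod4 lie on the adult Ghcre side, and Pou1f1 and Dlk1 lie close together.

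Somatotrope genes were split. Pappa2 (chromosome 1, 158539297 to 158788019), which cleaves binding proteins of insulin-like growth factors, stood at 4.67 scaled FPKM in adult Tshbcre, with bounds of 4.40 and 4.95, against 32.8 in adult Ghcre, with bounds of 31.3 and 34.3, or 5.96-fold lower. Neurod4, a basic helix-loop-helix factor required for somatotropes to mature in the mouse, stood at 1.92 in adult Tshbcre against 15.8 in adult Ghcre, 5.76-fold lower. Dlk1, a membrane protein of the Notch ligand family, was abundant in both, at 324 in adult Tshbcre and 423 in adult Ghcre, an order that turned round on FPKM as deposited. The remaining members did not point the same way.

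Foxo1, a forkhead factor of somatotrope differentiation, stood at 5.85 in adult Tshbcre against 1.46 in adult Ghcre on annotated transcripts, and at 5.85 against 11.2 with assembled transcripts added. Sstr2, a receptor for somatostatin, stood at 3.15 in adult Tshbcre against 1.66 in adult Ghcre, an order that turned round with both libraries scaled to an equal sum. Ghsr, the ghrelin receptor, was listed at 0 in adult Tshbcre and stood at 0.49 in adult Ghcre, and Sstr5 was listed at 0 in both. Of 6 members compared, 0 were 4-fold higher and 2 were 4-fold lower, with a median of -0.58. Gh and the receptor Ghrhr are not listed in the Ghcre table used here. In adult Tshbcre, Gh stood at 14806 scaled FPKM and Ghrhr at 6.69, so the Tshbcre fraction held growth hormone transcript above its own driver gene, and how much the Ghcre fraction held was not measured.

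Lactotrope genes leaned towards adult Ghcre, with 5 of 7 members compared lower in adult Tshbcre, all of these under 4-fold. In all, 1 was 4-fold higher in adult Tshbcre and 0 were 4-fold lower, with a median of -0.67 that stayed negative under each scaling. Esr1, the estrogen receptor alpha gene, stood at 28.5 in adult Tshbcre and 19.9 in adult Ghcre, an order that turned round with equal-sum scaling. Prlr, the prolactin receptor, stood at 5.61 in adult Tshbcre against 8.25 in adult Ghcre, and Agtr1a, the angiotensin II receptor, at 3.94 against 6.84. Nr4a2, an orphan nuclear receptor, stood at 5.26 in adult Tshbcre against 10.5 in adult Ghcre, and the growth factor gene Angpt1 at 2.76 against 7.96, both under 4-fold. The 1 member called, Edil3, was at 3.80 in adult Tshbcre and listed at 0 in adult Ghcre, a call lost with equal-sum scaling, and with assembled transcripts added its log2 difference was -2.03. Prl, the prolactin gene, stood at 6546 in adult Tshbcre and is not listed in the Ghcre table.

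Gonadotrope genes were also higher in adult Tshbcre. Fshb, the beta subunit of follicle-stimulating hormone, stood at 928 scaled FPKM in adult Tshbcre and was listed at 0 in adult Ghcre, where assembled transcripts gave 2.75. Nr5a1, the nuclear receptor SF-1 that defines gonadotropes in the pituitary, stood at 26.0 in adult Tshbcre against 0.09 in adult Ghcre, 24.8-fold higher. Inhbb, the inhibin and activin beta B subunit, stood at 10.4 against 0.27, 8.98-fold higher in adult Tshbcre. These 3 genes are not shared with the thyrotrope list, so the gonadotrope side of the comparison does not rest on Cga and Isl1.

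Other members stayed under 4-fold. Inha, the inhibin alpha subunit, stood at 12.1 in adult Tshbcre against 6.26 in adult Ghcre, and Egr1, the zinc finger factor that activates Lhb, at 58.5 against 51.7. For both the order turned round with equal-sum scaling, and for Inha also with assembled transcripts added. Otx1 and Fst stood at 0.09 and 0.02 in adult Tshbcre, against 0.14 and 0 in adult Ghcre, and Inhba was listed at 0 in adult Tshbcre against 0.27 in adult Ghcre. In all, 5 of 8 members compared were 4-fold higher and 0 lower, with a median of 3.20. Of those past the end of the Ghcre table, Lhb stood at 2904, Tgfbr3l at 413 and Gnrhr, the receptor for gonadotropin-releasing hormone, at 28.4 in adult Tshbcre. Whether gonadotropes in the adult Tshbcre fraction carry these levels was not tested.

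Corticotrope genes were mixed, with 2 of 5 members compared 4-fold higher, 1 lower and a median of 1.54. Pomc, the precursor of corticotropin and melanocyte-stimulating hormone, stood at 260 in adult Tshbcre against 27.9 in adult Ghcre, 9.05-fold higher. Pcsk1, a prohormone convertase that also works in other endocrine cells, stood at 48.7 in adult Tshbcre against 8.43 in adult Ghcre, 5.28-fold higher, and lost the 4-fold call with equal-sum scaling and with assembled transcripts added. Neurod1, a corticotrope helix-loop-helix factor, stood at 2.03 in adult Tshbcre against 0.04 in adult Ghcre. Nr3c1, the glucocorticoid receptor, stood at 7.31 in adult Tshbcre and 8.07 in adult Ghcre, with overlapping bounds and an order that turned round on FPKM as deposited. Crhbp, the binding protein of corticotropin-releasing hormone, went the other way: it was listed at 0 in adult Tshbcre and stood at 4.22 in adult Ghcre.

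The defining factor Tbx19 stood at 0.99 in adult Tshbcre against 0.09 in adult Ghcre, Crhr1 at 0.41 against 0, and Avpr1b at 0.10 against 0.09, all under the level compared. Of 3 melanotrope members compared, 2 were 4-fold higher, Pomc and the convertase Pcsk2, with 0 lower and a median of 2.06, while Oacyl stood at 2.07 against 0.23. Pcsk2 stood at 15.5 in adult Tshbcre against 2.96 in adult Ghcre, 4.18-fold higher, just past the line and not past it with equal-sum scaling. Both libraries were far under the adult whole gland, where Pomc stood at 1555.

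Many markers of immune cells, which the sort should remove, were also higher in adult Tshbcre. The immune list, mostly macrophage genes, had 7 of 11 members compared at least 4-fold higher and 0 lower, a median of 2.17, and a summed level of 90.7 scaled FPKM in adult Tshbcre against 7.13 in adult Ghcre. Lyz2, a lysozyme of myeloid cells, stood at 11.02 in adult Tshbcre against 0.15 in adult Ghcre, and the complement gene C1qb at 11.2 against 0.79. Cd74, the invariant chain of antigen presentation, stood at 18.1 in adult Tshbcre and was listed at 0 in adult Ghcre, and the protease gene Ctss stood at 13.8 against 1.203. With equal-sum scaling 2 members stayed 4-fold higher, Cd74 and Lyz2. The pan-leukocyte gene Ptprc stood at 0.81 in adult Tshbcre against 0.07 in adult Ghcre. In the adult whole gland Lyz2, C1qb, Ctss and Cd74 stood at 11.9, 18.8, 24.0 and 63.9. Lyz2 was thus nearly as high in adult Tshbcre as in the unsorted gland, and the others were lower. In the Tshbcre library of postnatal day 7 the same genes stood at 0.01, 0.51, 0.58 and 0.57.

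The stem and folliculostellate list had 4 of 11 members 4-fold higher and 0 lower, a median of 0.99, and a summed level of 113 in adult Tshbcre against 40.4 in adult Ghcre. Sox2, the factor of pituitary stem cells, stood at 5.72 in adult Tshbcre against 0.29 in adult Ghcre. The glutathione transferase gene Gstm1 stood at 30.6 against 2.08, the lipocalin gene Lcn2 at 15.8 against 0.94 and the aldolase gene Aldoc at 10.7 against 1.54, each higher in adult Tshbcre. In the adult whole gland Gstm1, Lcn2 and Aldoc stood at 53.7, 24.9 and 22.1. With equal-sum scaling 2 members stayed 4-fold higher, Gstm1 and Lcn2, though Gstm1 lost the call with assembled transcripts added. Of the others, S100b stood at 0.43 in adult Tshbcre against 0.12 in adult Ghcre, where assembled transcripts gave 4.10.

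The mesenchymal list had 1 of 9 members 4-fold higher, Igfbp5, with a median of 1.01 and a summed level of 177 in adult Tshbcre against 15.9 in adult Ghcre. Igfbp5 itself made up 148 of that sum in adult Tshbcre and 7.46 in adult Ghcre. Its collagen genes were near the floor, with Col1a1 at 1.12 in adult Tshbcre against 0.30 in adult Ghcre, Col3a1 at 1.02 against 0, and Timp3, an inhibitor of metalloproteinases, at 6.99 against 1.29. The endothelial list had 0 of 4 members 4-fold apart, a median of 0.72 and a summed level of 9.06 against 2.21, with Eng, Cldn5 and Cd34 at 0 in adult Ghcre. Alpha globins stood at 33.5 for Hba-a1 and 29.2 for Hba-a2 in adult Tshbcre, against 21.05 and 20.3 in adult Ghcre, and these copies share reads. For both the order turned round with equal-sum scaling. The posterior lobe list had 1 member compared, Nkx2-1, at 0.19 in adult Tshbcre and 1.097 in adult Ghcre. What part these other cells have in the differences between the 2 libraries was not tested.

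**Figure D2:**
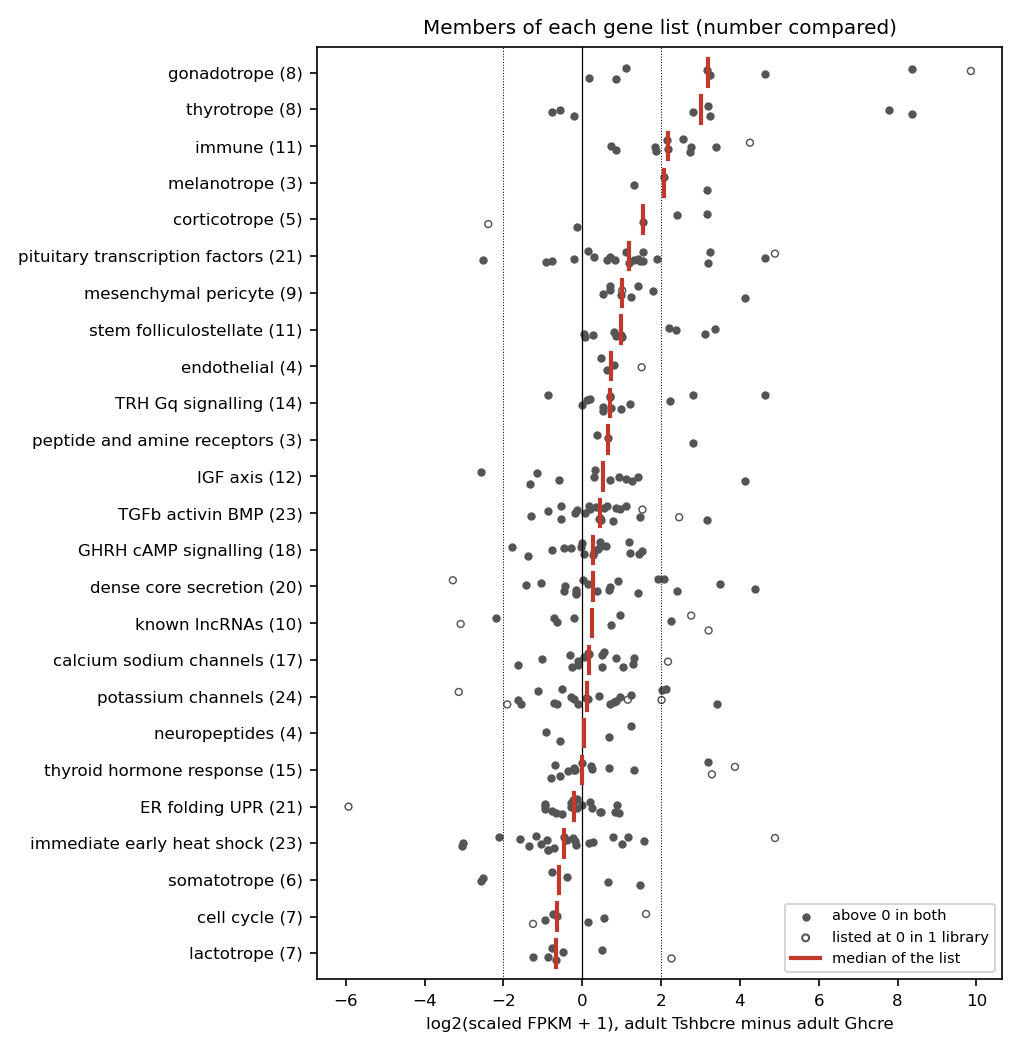
Log2 differences, adult Tshbcre minus adult Ghcre, of the members compared of each gene list (points, open where 1 library was listed at 0), with the median of the list as a bar and dotted lines at 4-fold. The gonadotrope, thyrotrope, immune and melanotrope lists have medians above the 4-fold line. The lowest medians drawn are those of the lactotrope, cell cycle and somatotrope lists. The erythroid and posterior lobe lists, with 2 and 1 members compared, are not drawn.

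Pituitary transcription factors leaned towards adult Tshbcre, with 4 of 21 members 4-fold higher, 1 lower and a median of 1.19. The median was 0.69 with assembled transcripts added and 0.16 with equal-sum scaling. Besides Nr5a1 and Isl1, the members higher were Eya1 and Nr4a1. Eya1, a coactivator of homeobox factors, stood at 13.98 in adult Tshbcre against 0.64 in adult Ghcre, 9.13-fold higher. Nr4a1, an orphan nuclear receptor, stood at 28.6 in adult Tshbcre and was listed at 0 in adult Ghcre, but with assembled transcripts added its log2 difference was -0.033. Neurod4 was the 1 member 4-fold lower. Six6, a homeobox factor, stood at 6.77 in adult Tshbcre against 13.6 in adult Ghcre.

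The pathway of thyrotropin-releasing hormone signals through Gq to phospholipase C and protein kinase C. In it, 3 of 14 members were 4-fold higher and 0 lower, with a median of 0.71 that turned negative with equal-sum scaling. That scaling also put the median of all genes at -0.87. Less the median of all genes, that of the list was 0.71 with it, against 0.74 as reported. Rgs4, which speeds the shut-off of G protein alpha subunits, stood at 35.0 in adult Tshbcre against 0.45 in adult Ghcre, 24.8-fold higher and further apart than the receptor Trhr. Prkcd, a protein kinase C, stood at 6.398 in adult Tshbcre against 0.58 in adult Ghcre, 4.70-fold higher, a call lost with equal-sum scaling and with assembled transcripts added. Prkce, another protein kinase C, stood at 29.8 in adult Tshbcre and 30.0 in adult Ghcre, and Itpr3, a calcium release channel, at 1.65 against 3.82.

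In the pathway of growth hormone-releasing hormone, 0 of 18 members were 4-fold apart in either direction, with a median of 0.29 that turned negative with equal-sum scaling, where 2 members were 4-fold lower. With assembled transcripts added, 1 member was 4-fold lower. On the higher side the widest differences were in Gnas, the stimulatory G protein alpha subunit, at 2066 in adult Tshbcre against 725 in adult Ghcre, in Pde10a, a phosphodiesterase, at 22.2 against 7.54, and in Pde4b and Pde4d, also phosphodiesterases, at 2.79 against 0.63 and at 6.58 against 2.31. The order turned round with assembled transcripts added for Pde10a, at 22.2 in adult Tshbcre against 28.4 in adult Ghcre, and for Pde4d, at 6.58 against 21.8. In the other direction, Prkar2b, a regulatory subunit of protein kinase A, stood at 2.86 in adult Tshbcre against 12.3 in adult Ghcre, 3.45-fold lower, the widest difference of the list. Adcy2, an adenylyl cyclase, stood at 1.26 in adult Tshbcre against 4.81 in adult Ghcre, where assembled transcripts gave 13.9, which put it 6.58-fold lower. Creb1 stood at 3.71 against 6.96. Adcy5 stood at 14.5 in adult Tshbcre against 20.3 in adult Ghcre, an order that turned round with assembled transcripts added (21.3 against 20.3).

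Thyroid hormone response genes had 3 of 15 members 4-fold higher and 0 lower, with a median of -0.01 whose sign changed with the scaling. One was Dio2. The corepressor partner Hdac3, at 13.7 in adult Tshbcre, and Rxrb, at 8.77, were listed at 0 in adult Ghcre, and with assembled transcripts added the log2 difference of Hdac3 was -0.46. Klf9, a gene that thyroid hormone induces, stood at 7.22 in adult Tshbcre against 13.2 in adult Ghcre. Thra, the alpha receptor, stood at 21.05 in adult Tshbcre against 24.5 in adult Ghcre, an order that turned round on FPKM as deposited.

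Among peptide and amine receptors, 3 of the 24 members listed in both tables reached the level compared: Trhr, Sstr2 and Sstr3, the last at 6.02 in adult Tshbcre against 4.45 in adult Ghcre. The order of Sstr2 and Sstr3 turned round with equal-sum scaling. Trhr was the 1 member 4-fold higher and 0 were lower, with a median of 0.64 that turned negative with equal-sum scaling. Neuropeptide genes were low in both, with 4 compared, 0 of them 4-fold apart and a median of 0.05 that also turned negative with that scaling. Nppc, a natriuretic peptide, stood at 2.90 in adult Tshbcre against 0.66 in adult Ghcre and Gal, the galanin gene, at 2.08 against 0.93, or against 2.78 once assembled transcripts were added. The opioid precursor Penk stood at 0.56 in adult Tshbcre against 1.95 in adult Ghcre and Pdyn at 0.78 against 1.65.

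Dense-core granule genes had 4 of 20 members 4-fold higher, 1 lower and a median of 0.26 that turned negative with equal-sum scaling. The granins differed among themselves. Chga, the chromogranin A gene, stood at 1155 in adult Tshbcre, with bounds of 1148 and 1162, against 54.1 in adult Ghcre, with bounds of 53.0 and 55.2, or 21.0-fold higher. Scg2, the secretogranin II gene, stood at 1391 in adult Tshbcre against 122 in adult Ghcre, 11.4-fold higher, while Chgb, the chromogranin B gene, stood at 729 against 558, an order that turned round with equal-sum scaling.

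Within the same list, Ptprn, a membrane protein of the granule, stood at 47.0 in adult Tshbcre against 128 in adult Ghcre. Syt7, a calcium sensor, stood at 14.2 in adult Tshbcre against 19.8 in adult Ghcre. Doc2b, a calcium sensor of exocytosis, was listed at 0 in adult Tshbcre and stood at 8.73 in adult Ghcre. With equal-sum scaling 2 members, Chga and Scg2, were 4-fold higher and 3 were 4-fold lower. Granule genes were thus not shifted as a block.

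Potassium channels had 4 of 24 members 4-fold higher, 1 lower and a median of 0.11 that turned negative with equal-sum scaling. Kcnk3, a two-pore background channel, stood at 15.8 in adult Tshbcre against 0.56 in adult Ghcre, 10.7-fold higher. Its relative Kcnk9 stood at 29.0 in adult Tshbcre against 6.41 in adult Ghcre, 4.04-fold higher. The voltage-gated Kcna4 stood at 3.93 against 0.14, and Kcnt1 at 3.03 in adult Tshbcre and at 0 in adult Ghcre, and with equal-sum scaling Kcnk3 alone stayed 4-fold higher while 5 members were 4-fold lower. Kcnh6, a voltage-gated channel, was listed at 0 in adult Tshbcre and stood at 7.77 in adult Ghcre, and so was Kcnmb2, an accessory subunit, against 2.74. Kcnk10 stood at 0.23 in adult Tshbcre against 2.83 in adult Ghcre and Kcna2 at 0.95 against 4.76, both under 4-fold.

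Calcium and sodium channels had 1 of 17 members 4-fold higher, 0 lower and a median of 0.17 that turned negative with equal-sum scaling. That member was the accessory subunit Cacnb1, at 3.52 in adult Tshbcre and listed at 0 in adult Ghcre, a call lost with equal-sum scaling. Scn3a, a sodium channel, stood at 12.2 in adult Tshbcre against 4.30 in adult Ghcre, and Cacng4, a channel accessory subunit, at 2.86 against 0.58. The T-type channel Cacna1h stood at 0.84 in adult Tshbcre against 4.68 in adult Ghcre and Cacna1g at 0.35 against 1.73. The third T-type gene, Cacna1i, went the other way, at 3.20 in adult Tshbcre against 1.30 in adult Ghcre, an order that turned round with assembled transcripts added (3.20 against 4.22). None of the T-type genes was 4-fold apart, though with equal-sum scaling Cacna1h was 4-fold lower, at a log2 difference of -2.32.

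In the insulin-like growth factor axis, 1 of 12 members was 4-fold higher, 1 lower, and the median of 0.52 turned negative with equal-sum scaling, where 3 members were 4-fold lower. Igfbp5, a binding protein, stood at 148 in adult Tshbcre against 7.46 in adult Ghcre, 17.6-fold higher, and Pappa2, a protease that cuts it, was the member lower. The other binding proteins at the level compared, Igfbp2, Igfbp3 and Igfbp4, stood at 2.77, 4.60 and 2.56 in adult Tshbcre, against 0.57, 1.11 and 0.88 in adult Ghcre. Under that level, Igfbp1 and Igfbp6 stood at 0.60 and 0.67 in adult Tshbcre, against 0 and 0.14 in adult Ghcre. Stat5a, which carries growth hormone signals, stood at 3.96 in adult Tshbcre against 9.93 in adult Ghcre, and Igf2r, a receptor that clears insulin-like growth factor 2, at 1.81 against 6.001.

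Of the activin, TGF-beta and BMP genes, 2 of 23 were 4-fold higher and 0 lower, with a median of 0.45 that turned negative with equal-sum scaling. Inhbb was one. Chrd, a BMP antagonist, stood at 4.50 in adult Tshbcre and was listed at 0 in adult Ghcre, but with assembled transcripts added its log2 difference was -2.81. Fstl1 stood at 2.87 in adult Tshbcre against 0.39 in adult Ghcre, and Fstl3, which binds activin, at 1.88 in adult Tshbcre and at 0 in adult Ghcre. Bambi, a pseudoreceptor that blocks TGF-beta signals, stood at 1.42 in adult Tshbcre against 4.95 in adult Ghcre and Nog, a BMP antagonist, at 2.10 against 4.69.

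Protein folding genes of the endoplasmic reticulum were close, with 0 of 21 members 4-fold higher, 1 lower and a median of -0.21 that turned positive on FPKM as deposited, while equal-sum scaling put 3 members 4-fold lower. The chaperone gene Hspa5 stood at 227 in adult Tshbcre against 190 in adult Ghcre, with an order that turned round with equal-sum scaling. Ddit3, a stress-induced factor whose locus overlaps Mars1 and Mbd6, stood at 59.9 in adult Ghcre. It was listed at 0 in adult Tshbcre and in every library outside the pair. Ern1, a sensor of unfolded proteins, stood at 11.4 in adult Tshbcre against 23.0 in adult Ghcre. Its fellow members Atf4 and P4hb stood at 30.5 and 58.9 in adult Tshbcre, against 59.6 and 114 in adult Ghcre.

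Immediate early and heat shock genes, which many stimuli induce quickly, had 1 of 23 members 4-fold higher in adult Tshbcre, 3 lower and a median of -0.45, which was -0.06 on FPKM as deposited. The member higher was Nr4a1, a call lost with assembled transcripts added. The summed level of the list was 488 in adult Tshbcre against 1383 in adult Ghcre. Hspa1a and Hspa1b, the inducible Hsp70 genes, stood at 49.4 and 48.3 in adult Tshbcre, against 417 and 398 in adult Ghcre, or 8.29-fold and 8.09-fold lower. The pair are near-identical copies, so reads of one cannot be told from those of the other. Without this pair the summed level was 390.2 in adult Tshbcre against 569 in adult Ghcre, with 1 of 21 members 4-fold higher, 1 lower and a median of -0.38. Egr2, a zinc finger factor, stood at 1.09 in adult Tshbcre against 8.06 in adult Ghcre, 4.33-fold lower, a call lost on FPKM as deposited and with assembled transcripts added, while equal-sum scaling put 7 members 4-fold lower. Fos stood at 74.9 in adult Tshbcre against 171 in adult Ghcre and Jun at 39.6 against 82.2, both under 4-fold. Whether the handling of the 2 sorts has a part in this was not tested.

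Cell cycle genes were low in both libraries, with 7 of 20 members listed in both tables reaching the level compared, 0 of them 4-fold apart, and a median of -0.64. The replication gene Pcna stood at 4.96 in adult Tshbcre and 4.34 in adult Ghcre, an order that turned round with equal-sum scaling and with assembled transcripts added. Top2a, a topoisomerase of dividing cells, stood at 0.67 in adult Tshbcre against 2.20 in adult Ghcre, and Mcm4 stood at 2.07 in adult Tshbcre and at 0 in adult Ghcre, where assembled transcripts gave 9.77. Aurka, a mitotic kinase gene, was listed at 0 in adult Tshbcre and stood at 1.38 in adult Ghcre.

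Across all genes compared, 587 were at least 4-fold higher in adult Tshbcre and 575 at least 4-fold lower, so that 50.5% of the genes apart were higher. That split depended on the scaling, since 361 were higher and 1128 lower, or 24.2% higher, with both scaled to an equal sum, which moved the median of all genes by -0.84. Genes whose longest transcript was under 200 nt held 71.9% of the summed FPKM in adult Tshbcre and 33.6% in adult Ghcre. That sum sets the equal-sum factor. FPKM as deposited moved the median by 0.35 and gave 659 higher and 463 lower, or 58.7% higher. The medians of the gene lists moved with that of all genes. Taken less the median of all genes, only that of potassium channels turned negative with equal-sum scaling, at -0.17 against 0.14 as reported. Among the 1162 genes apart, 76.7% were listed at 0 in 1 library, 423 of them in adult Ghcre and 468 in adult Tshbcre.

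Over the 9731 genes above 0 in both libraries, 164 (1.69%) were higher and 107 (1.1%) lower, or 60.5% higher. Of these, 113 (1.16%) and 74 (0.76%) also held with assembled transcripts added. With those transcripts added to every gene, 493 of 12670 (3.89%) were higher and 538 (4.25%) lower. Over protein-coding genes, 375 of 7720 (4.86%) were higher and 231 (2.99%) lower, or 61.9% higher. The quartiles of the log2 differences over all genes compared were -0.58 and 0.57, so most genes lay well inside the 4-fold lines.

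**Figure D3:**
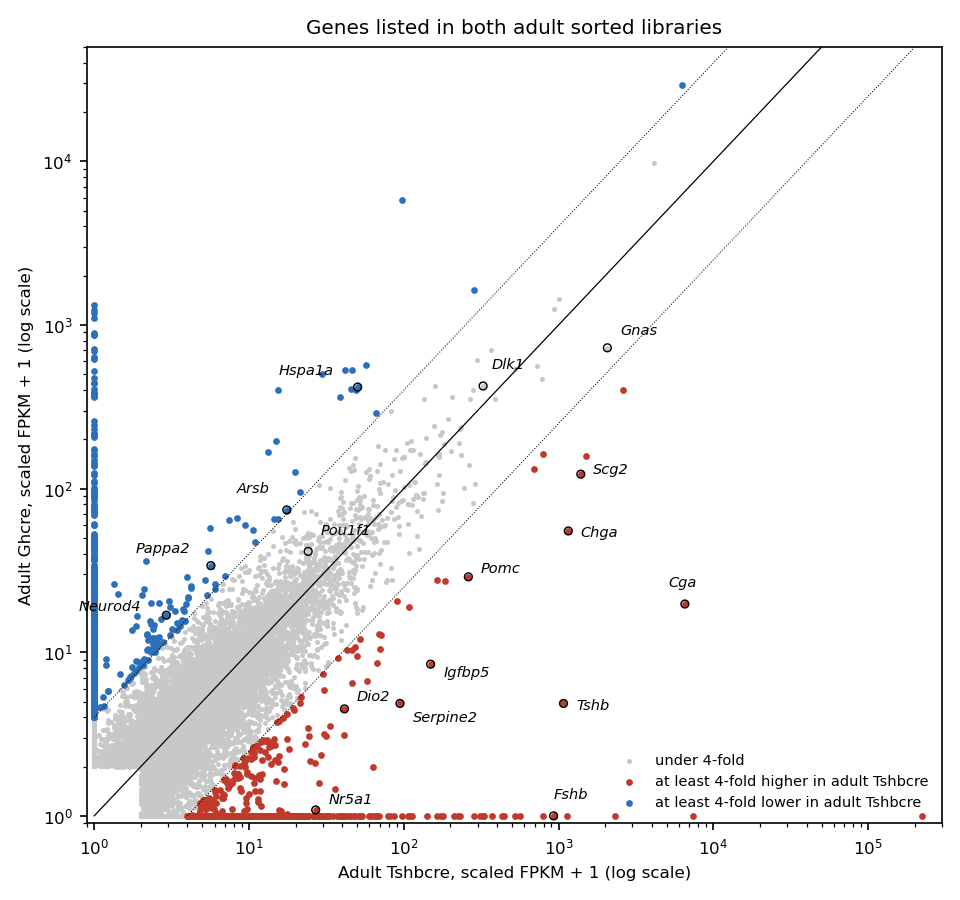
Scaled FPKM + 1 of the 11207 genes compared, adult Tshbcre on the horizontal and adult Ghcre on the vertical axis (both log), with the line of equality and dotted lines at 4-fold. The 587 genes at least 4-fold higher in adult Tshbcre (red) and the 575 at least 4-fold lower (blue) lie mostly on the axes, where 1 library was listed at 0, and Cga, Tshb, Chga and Scg2 stand clear of both the axis and the main cloud.

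Of 40 protein-coding genes that met every condition for naming on the higher side, the 12 furthest apart include Cga, Tshb, Nr5a1, Rgs4, Chga and Igfbp5, described above. Serpine2, a serine protease inhibitor, stood at 93.5 scaled FPKM in adult Tshbcre against 3.87 in adult Ghcre, 19.4-fold higher. Grem1, a secreted BMP antagonist, stood at 16.7 in adult Tshbcre against 0.03 in adult Ghcre. Sdc4, a heparan sulfate proteoglycan, stood at 25.6 against 1.09 and Hecw2, a ubiquitin ligase, at 23.7 against 1.16, each higher in adult Tshbcre. Lrrn2, a leucine-rich repeat membrane protein, stood at 14.6 against 0.09.

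Sycp1, a protein of the meiotic synaptonemal complex, stood at 15.1 in adult Tshbcre against 0.06 in adult Ghcre, or 1.28 with assembled transcripts added. It lies next to Tshb (chromosome 3, 102725815 to 102843416, mm39), was listed at 0 in the adult Lhbcre library and the adult whole gland, and stood at 14.01 in the Tshbcre library of postnatal day 7. It was therefore high in both libraries sorted with this driver.

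Only 13 protein-coding genes met the same conditions on the lower side. The largest difference was in Gm8094, at 1.08 in adult Tshbcre, with bounds of 0.10 and 2.35, against 23.4 in adult Ghcre. Sec16b, which organises the sites where proteins leave the endoplasmic reticulum, stood at 0.75 in adult Tshbcre against 12.6 in adult Ghcre, 7.77-fold lower. Hspa1l, the Hsp70 gene next to Hspa1a, stood at 4.47 against 40.4. Dapl1 stood at 2.31 in adult Tshbcre against 16.95 in adult Ghcre, and Nkiras1, which overlaps Ube2e1, at 1.43 against 13.6.

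Arsb, a lysosomal sulfatase, stood at 16.6 in adult Tshbcre against 73.1 in adult Ghcre, 4.22-fold lower. The carbonic anhydrase-related gene Car10 stood at 2.10 against 11.7 and H2-Q4, of the class I histocompatibility family, at 5.00 against 23.2. These 3 genes lost the call on FPKM as deposited, and H2-Q4 has close relatives that may share its reads. With Pappa2, Neurod4, Hspa1a and Hspa1b this makes up the 12 named.

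**Figure D4:**
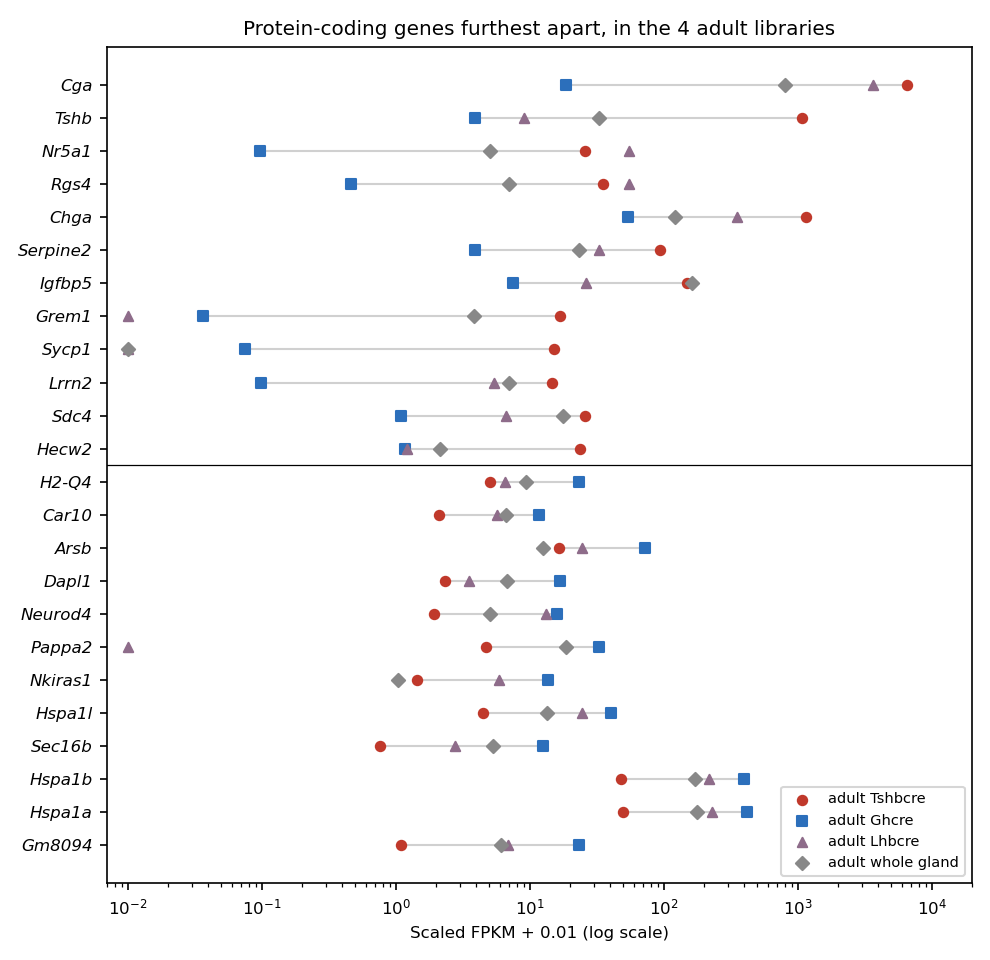
Scaled FPKM (log axis, 0.01 added) of the 12 protein-coding genes furthest apart on the higher side (above the line) and on the lower side (below it), in the 4 adult libraries, with a grey line joining adult Tshbcre and adult Ghcre. Nr5a1 and Rgs4 are highest in the adult Lhbcre library, Sycp1 is above 0.1 in adult Tshbcre alone, and for Hspa1a the adult Lhbcre library and the whole gland lie between the pair.

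The libraries outside the pair place some of these levels. Nr5a1 stood at 55.5 and Rgs4 at 55.5 in the adult Lhbcre library, both above their adult Tshbcre levels. Gonadotrope genes did not all go this way. Gnrhr, at 53.2 in adult Lhbcre, was also above its adult Tshbcre level. Fshb, Lhb, Cga and Inhbb, at 216, 2198, 3649 and 4.84 in adult Lhbcre, were below theirs. Chga stood at 353 and Serpine2 at 33.0 in the adult Lhbcre library, each between adult Tshbcre and adult Ghcre. Grem1 and Pappa2 were listed at 0 there. Neurod4 stood at 13.3 there, near its adult Ghcre level of 15.8 and above its adult Tshbcre level of 1.92. In the adult whole gland Hspa1a stood at 177 and Igfbp5 at 164, above the level of Igfbp5 in either library of the pair. Xist stood at 0.11 in adult Tshbcre and 0.06 in the adult whole gland, against 29.4 in adult Lhbcre. At postnatal day 7 it stood at 62.6 in the Tshbcre library and 17.04 in the whole glands. Xist is not listed in the Ghcre table, so the pair cannot be compared for it. Whether the sex of the animals has a part in differences between these libraries was not tested.

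Among lncRNA genes, 16 of 908 (1.76%) were 4-fold higher and 38 (4.19%) lower, and 3 and 7 of them met the conditions for naming. Gm51921 (chromosome 11, 103955935 to 103965529) stood at 184 in adult Tshbcre against 26.3 in adult Ghcre, 6.78-fold higher. Rmst, a lncRNA of neural differentiation, stood at 4.28 in adult Tshbcre against 0.10 in adult Ghcre, or 27.2 against 1.39 with assembled transcripts added. Gm40155, which overlaps Dnajb14, stood at 4.62 against 0.19. The calls of all 3 were lost with equal-sum scaling.

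On the lower side, Gm15564 (chromosome 16, 35787121 to 35803619), which overlaps Parp9, stood at 41.0 in adult Tshbcre against 528 in adult Ghcre, 12.6-fold lower. Gm42186 (chromosome 3, 17171297 to 17193926) stood at 96.4 in adult Tshbcre, with bounds of 0 and 233, against 5818 in adult Ghcre, with bounds of 4982 and 6653. 1700122H20Rik stood at 0.19 in adult Tshbcre against 8.04 in adult Ghcre. Gm41086 and Gm41088 carried identical values, 0.23 in adult Tshbcre against 4.76 in adult Ghcre, and count as 1 observation. Gas5, a growth-arrest transcript that hosts small nucleolar RNA genes, stood at 20.2 in adult Tshbcre against 94.9 in adult Ghcre, 4.52-fold lower. The calls of Gas5, Gm41086 and Gm41088 were lost on FPKM as deposited.

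Of 10 lncRNAs in the list of known ones, 3 were 4-fold higher and 2 lower, with a median of 0.26 that turned negative with equal-sum scaling. Besides Rmst and Gas5, Mirg stood at 8.22 and Oip5os1 at 5.79 in adult Tshbcre and both were listed at 0 in adult Ghcre, and with assembled transcripts added the log2 difference of Oip5os1 was -0.35. Snhg12, another host of small nucleolar RNAs, was listed at 0 in adult Tshbcre and stood at 7.48 in adult Ghcre. Neat1, the scaffold of nuclear paraspeckles, stood at 4.87 in adult Tshbcre against 8.69 in adult Ghcre, and Tug1 at 12.0 against 14.1 with an order that turned round on FPKM as deposited.

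Genes of all other biotypes were apart more often, with 196 of 2579 (7.6%) higher and 306 (11.9%) lower. Of 89 microRNA genes compared, 35 were higher and 48 lower, of 224 small nucleolar RNA genes 61 and 90, and of 44 transfer RNA genes 14 and 30. Of 1600 pseudogenes, 40 were higher and 63 lower. The short RNA genes were thus apart in both directions.

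Transcript use was compared within genes as well. In Tshb, the transcript NM_001165940.1 carried 98.3% of the level in adult Tshbcre and 80.9% in adult Ghcre, where the gene was low. In Trhr, NM_013696.2 carried 68.6% in adult Tshbcre and 20.02% in adult Ghcre, the remainder being the predicted transcript XM_006520748.3. Pappa2 was carried by NM_001085376.3 alone in adult Tshbcre and to 86.1% in adult Ghcre. Over 256 protein-coding genes at 20 scaled FPKM or more in both libraries, the leading transcript differed in 45 (17.6%).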

How the data were processed

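The files are isoform tables, made with Cufflinks after Bowtie2 and FastQC on mm39, per the submitters' processing notes, which give no versions or settings. The deposited FPKM of each transcript, with its bounds, was computed by the authors and normalised to the mapped fragments of its library. The deposited coverage signal equalled FPKM times 1 constant per file, used as the relative depth because read numbers are not given in the sources used here. Use of strand is not stated, so overlapping genes cannot be told apart.

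FPKM was summed over the rows of a gene name and divided by the median of ratios over 5808 genes that reach 1 FPKM in each of the 6 libraries (factors of 1.00 for adult Tshbcre and 0.758 for adult Ghcre). Differences are of log2(scaled FPKM + 1). A gene was compared at 1 scaled FPKM or more in either library and counted as apart at 4-fold. A gene listed at 0 may still be expressed, and no fold is given against it. Assembled transcripts of 200 nt or more were added as an alternative. Biotypes and promoters came from RefSeq on GRCm38.p6, with 35545 gene names matched through their accession, 13202 through the symbol, 2 through a synonym and 1599 unmatched, and coordinates otherwise are those of the files, counted from 1.

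The 27 gene lists and the genes named were chosen with earlier results of these data known. Genes named are the members of the 5 hormone cell type lists, the members furthest apart of the other lists (with some others, chosen after their values were seen), and, above 0 in both, up to 12 protein-coding and 6 lncRNA genes per direction that were 4-fold apart with bounds that did not overlap, also with assembled transcripts added, at 10 scaled FPKM (lncRNAs at 1). A few list members are counted but not reported here by name. The script was tested on simulated data. Python 3.11.15, pandas 2.3.3 and numpy 2.4.6 were used. No p-value was computed.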

Additional observations from a re-analysis of the deposited data

Results flagged for a closer look

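Both results set apart here are levels in adult Tshbcre of genes that the comparison does not use, because the Ghcre table does not list them. Gh stood at 14806 scaled FPKM in adult Tshbcre, with bounds of 14192 and 15420, against 3870 in the Tshbcre library of postnatal day 7 and 6031 in the whole gland of that age. Prl stood at 6546 in adult Tshbcre, with bounds of 6273 and 6820, against 17579 in the adult whole gland. Neither gene is listed for adult Lhbcre, and Gh is not listed for the adult whole gland, so the gap is not particular to adult Ghcre. Both genes lie on chromosomes that the Ghcre table covers to their end. On those 14 chromosomes it leaves out 283 gene names that the adult Tshbcre table lists, and 13 of these stood at 1 FPKM or more in adult Tshbcre.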

How the results depend on the processing

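No paired analysis was possible because each group is 1 library. Counts of genes 4-fold higher and lower in adult Tshbcre, 587 and 575 as reported, were 361 and 1128 with equal-sum scaling, 1221 and 1109 with a pseudocount of 0.1, 154 and 216 with one of 5, and 164 and 107 over genes above 0 in both. With alternatives chosen after seeing the data, 202 and 141 were counted with assembled transcripts added and both libraries then above 0, and 375 and 231 over protein-coding genes, which are fewer genes by construction. The cause of the other shifts was not tested. Counts stayed within 1.5 times of those reported with FPKM as deposited, with factors from the pair alone (540 and 503), with a minimum of 5 (437 and 456), with assembled transcripts added (493 and 538), with transcripts of status OK, without genes at several loci and with bounds that must not overlap (474 and 481). Of 70 named genes or list members 4-fold apart, 55 kept the call with equal-sum scaling, 59 with assembled transcripts added, 63 on FPKM as deposited and 26 with a pseudocount of 5. The sign turned for Chrd (-2.81), Edil3 (-2.03), Hdac3 (-0.46), Oip5os1 (-0.35) and Nr4a1 (-0.033) with assembled transcripts added, each listed at 0 in adult Ghcre without them. Transcripts of 200 nt or more were 51.9% of the unnamed ones in adult Tshbcre and 16.7% in adult Ghcre, so the addition is uneven. Depth limits the genes near 1 scaled FPKM, more so in the shallower adult Tshbcre library.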
